A study of Mus musculus with 6 samples.

Results

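Complement genes of tumor-associated macrophages (TAMs) were described for 9 genes of the complement cascade, chosen by name: the 3 chains of C1q (C1qa, C1qb and C1qc), C2, C4b, C3, factor B (Cfb), properdin (Cfp) and C6. They are 9 of the 56980 genes in the deposited table, and each was matched to 1 Ensembl gene ID. Mouse ovarian cancer cells of the line ID8 were injected into the peritoneal cavity of female mice aged 6 to 8 weeks, and tumors were taken 2 months later. WT TAMs came from C57BL/6 mice (n = 3 libraries) and C5aR-/- TAMs from mice of that background that lacked the C5a receptor gene in every host cell (n = 3 libraries), while the injected ID8 cells were the same in both groups and were not knocked out. TAMs were sorted as live CD45+CD11b+Ly6G-F4/80+ cells, and their poly(A) RNA was sequenced. Values are TPM, which correct for transcript length and sum to 1000000 in each library, so levels of different genes can be set side by side. The depth behind a TPM is unknown, no counting error can be given, and a 0 can be a failed estimate.

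Complement is a cascade of plasma proteins that marks targets for uptake, recruits leukocytes and can form pores in membranes. The classical pathway starts when C1q, built from C1qa, C1qb and C1qc chains, binds a target and activates the C1r and C1s proteases, which cleave C4 and C2 to form a C3 convertase. The alternative pathway builds its convertase from C3b and factor B and is stabilized by properdin, and both routes lead to C5 cleavage, the release of C5a and the assembly of C6 to C9 into the membrane attack complex. The liver makes most plasma complement, whereas C1q and properdin are made largely by myeloid cells.

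The targeted gene, C5ar1, stood at 86.5, 37.3 and 16.2 TPM in WT TAMs 1, 2 and 3 and at 0.38, 0.11 and 0.05 TPM in C5aR-/- TAMs 1, 2 and 3, so the 6 libraries matched their labels. C5ar2, the second C5a receptor, lay between 0.35 and 1.49 in WT and between 0.04 and 0.20 in C5aR-/- TAMs. Hc, the C5 gene, did not exceed 0.13 in any library.

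The members lie in 2 gene clusters and 3 single places of the mouse genome (GRCm38). The C1q genes are neighbors on the minus strand of chromosome 4, with C1qb at chr4:136880129-136886187, C1qc at chr4:136889804-136893065 and C1qa at chr4:136895917-136898803. C4b (chr17:34728380-34743882), Cfb (chr17:34856374-34862518) and C2 (chr17:34862604-34898265) lie on the minus strand of the major histocompatibility class III region, and C3 lies on the same chromosome at chr17:57203970-57228136. Cfp is at chrX:20925454-20931555, and C6 is on the plus strand at chr15:4727175-4814967. RefSeq promoters were matched for 5 of the 9 members, C1qb, C1qc, C3, C6 and Cfp. Shown are 3 of them, because 2 C1q chains varied together over the libraries and C3 did not vary with them. Each is the 250 bases before the RefSeq transcription start (GRCm38.p6, minus strand), at chr4:136886201-136886450, chr4:136892915-136893164 and chr17:57228137-57228386 in that order, and capitals mark a motif found on either strand.
C1qb: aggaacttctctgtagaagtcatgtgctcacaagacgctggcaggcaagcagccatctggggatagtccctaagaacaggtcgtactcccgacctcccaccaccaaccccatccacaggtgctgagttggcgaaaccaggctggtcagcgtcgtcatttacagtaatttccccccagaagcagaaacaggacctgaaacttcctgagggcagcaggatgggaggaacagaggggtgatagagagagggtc
C1qc: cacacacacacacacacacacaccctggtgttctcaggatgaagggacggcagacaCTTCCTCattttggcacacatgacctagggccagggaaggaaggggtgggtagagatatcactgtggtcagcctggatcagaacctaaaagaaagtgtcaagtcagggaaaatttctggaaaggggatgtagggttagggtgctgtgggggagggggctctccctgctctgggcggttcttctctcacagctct
C3: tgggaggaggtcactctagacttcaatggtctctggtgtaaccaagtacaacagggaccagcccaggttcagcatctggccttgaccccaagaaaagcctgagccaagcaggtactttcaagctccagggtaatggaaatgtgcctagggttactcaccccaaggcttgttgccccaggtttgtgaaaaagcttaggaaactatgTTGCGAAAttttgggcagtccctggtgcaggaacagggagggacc
The C1qc window holds CTTCCTC, the reverse of the PU.1 form GAGGAAG, 194 bases before the RefSeq start, and 10.6% of 32851 mouse promoters of this length hold that form. On the minus strand C1qc as placed above starts at chr4:136893065, inside this window. Part of the window therefore lies within the gene in that annotation, and the distance holds for the RefSeq start only. In the C3 window TTGCGAAA, a match to the C/EBP form TTGCNNAA, begins 45 bases before the start, and 9.56% of promoters hold such a match. None of the 6 motif forms searched was found in the windows of C1qb, C6 or Cfp. The other forms were TTCNNNGAA (GAS), TGANTCA (AP-1), GAAANNGAA (IRF) and GGGNNTTCC (NF-kB), held by 7.02%, 6.75%, 7.13% and 4.98% of promoters.

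In both groups the C1q chains and C3 were the most abundant members and C6 was near 0. In WT TAMs the mean TPM was 616 for C3, 529 for C1qa, 523 for C1qb, 344 for C1qc, 210 for C4b, 126 for Cfp, 63.7 for Cfb, 47.0 for C2 and 0.297 for C6. In C5aR-/- TAMs it was 740 for C1qa, 736 for C1qb, 462 for C1qc, 418 for C3, 99.7 for Cfp, 71.8 for C4b, 32.6 for Cfb, 18.7 for C2 and 1.16 for C6. The ranges of the 3 WT libraries overlapped between each gene and the next in this order down to C2, and only C6 lay apart. Within a library the order was tighter, since C1qc was below both C1qa and C1qb in 6 of 6 libraries, whereas C1qa exceeded C1qb in 4 of 6. C4b was above Cfp in 3 of 3 WT libraries and in 0 of 3 C5aR-/- libraries. In C5aR-/- TAMs 2 and 3 the genes were nearly equal, with C4b at 82.0 and 29.1 TPM and Cfp at 84.9 and 29.4. The 9 genes together held between 0.175% and 0.352% of a library's TPM, and C1q made up between 41.0% and 84.9% of that.

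**Figure D1:**
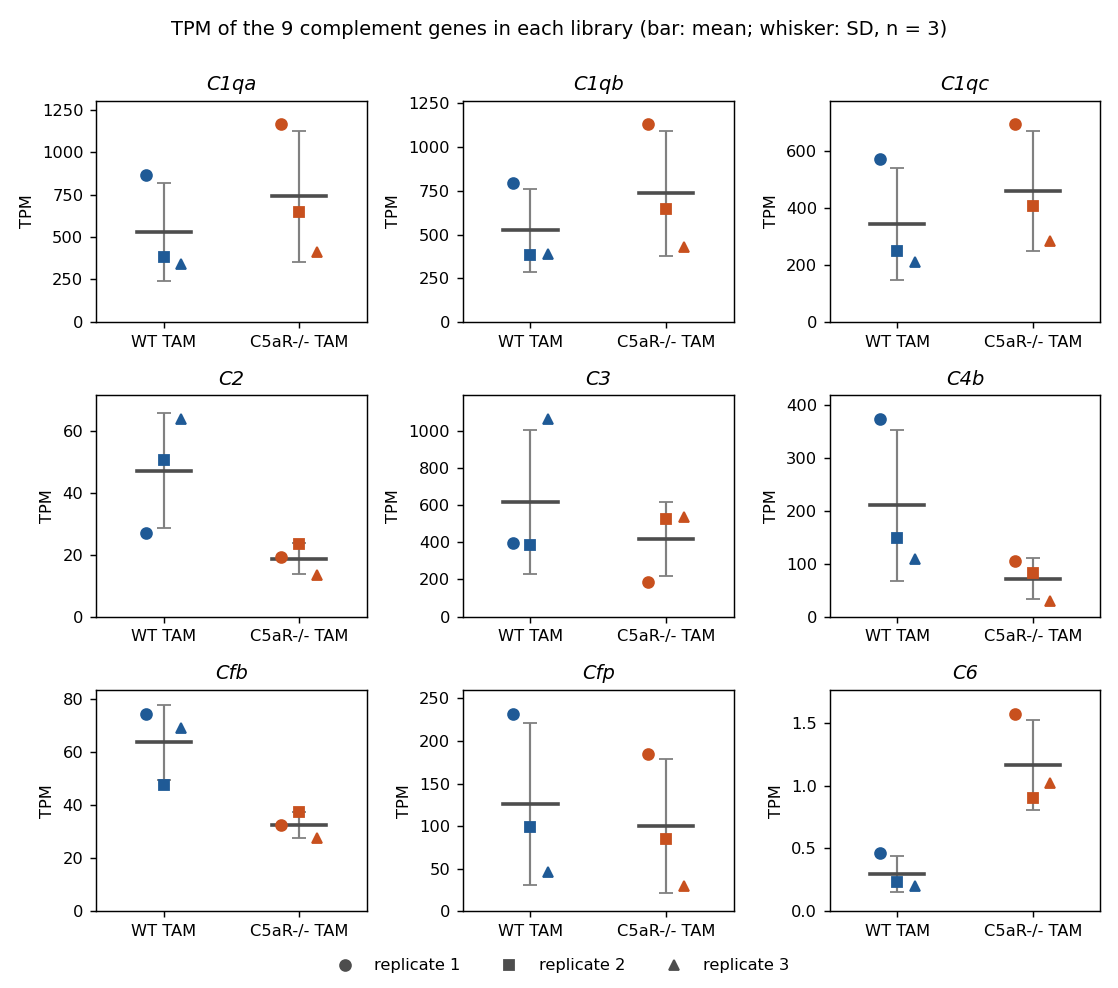
TPM of each of the 9 complement genes (vertical axis, linear from 0, a separate scale per gene) in 3 WT and 3 C5aR-/- TAM libraries, with a point per library, the mean as a bar and the SD as a whisker. C2, C4b and Cfb are lower in every C5aR-/- library than in any WT library, C6 is higher in every C5aR-/- library at values near 1, and the other 5 genes overlap between the groups.

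The groups were compared with limma on log2(TPM + 1) over the 14776 genes that reached a TPM of 1 in 3 or more libraries, which kept 8 of the 9 members and left out C6. Of the 8, C5aR-/- TAMs had 3 higher and 5 lower, and their median log2 difference was -0.47 against -0.05 over all genes tested, of which 55.5% were lower. At the adjusted threshold (an adjusted p under 0.05 with 2-fold or more), limma called 0 members and 0% of all genes. At an unadjusted p under 0.05, limma gave 3 lower members and 0 higher, beside 1237 lower and 896 higher genes of all those tested. With the 2-fold limit added, which makes the unadjusted threshold, C2 and C4b were called lower, against 2.84% of all genes in that direction, and no member was called higher, against 2.13%. C2, C4b and Cfb did not overlap between the groups and were lower in C5aR-/- TAMs, as were 12.5% of all genes, and 0 tested members lay wholly higher, as did 8.84%. The labels do not say that the libraries came from separate mice, and the study's legends count more mice than the libraries analysed here, so the p-values measure the spread between these libraries. In sorted cells measured in bulk, fewer cells of a type and less RNA per cell cannot be told apart.

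**Figure D2:**
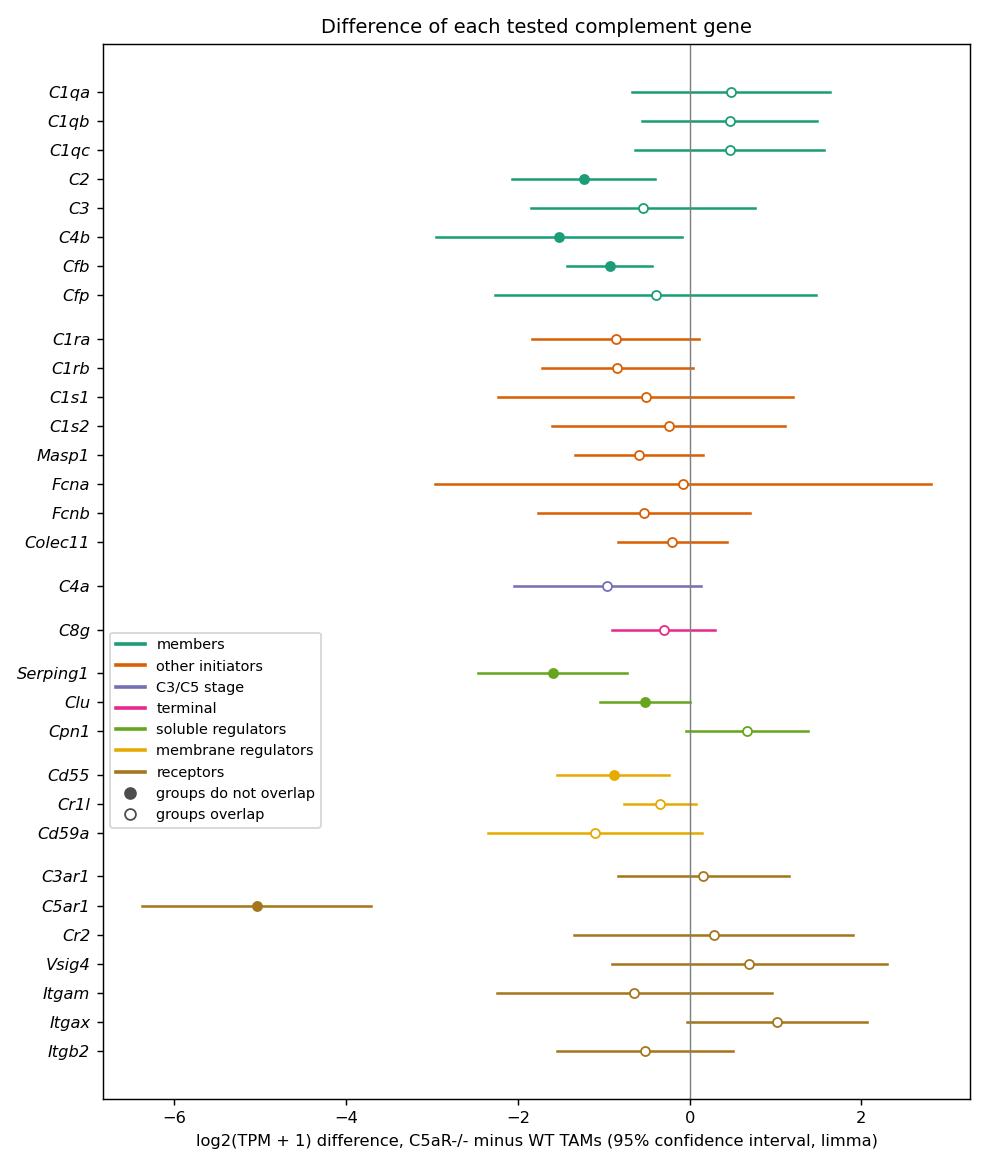
Difference in log2(TPM + 1), C5aR-/- minus WT TAMs (horizontal axis), with its 95% confidence interval from limma, for the 8 tested members and the 23 other tested complement genes, grouped by role. Filled points mark genes whose groups do not overlap. Among members these are C2, C4b and Cfb, all to the left of 0, and the C1q chains lie to the right of 0 with intervals that include 0.

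C1q is the recognition molecule of the classical pathway, and its 3 chains had nearly the same profile. C1qa stood at 864, 384 and 340 TPM in WT TAMs 1, 2 and 3 and at 1163, 646 and 409 TPM in C5aR-/- TAMs 1, 2 and 3. C1qb had 797, 384 and 389 in the WT libraries and 1129, 646 and 431 in the C5aR-/- libraries. C1qc had 573, 249 and 212 in WT and 694, 407 and 283 in C5aR-/- TAMs. For all 3 chains C5aR-/- TAM 1 was the highest library and WT TAM 1 the next, and the groups overlapped. The log2 difference was 0.48 for C1qa (95% interval -0.67 to 1.63), 0.47 for C1qb (-0.55 to 1.49) and 0.47 for C1qc (-0.63 to 1.57), with adjusted p-values of 0.69, 0.66 and 0.68 from limma. The interval of each chain therefore spans both a decrease and a more than 2-fold increase. C1qa made up between 36.1% and 38.9% of the summed C1q TPM, C1qb between 35.7% and 41.4% and C1qc between 22.5% and 25.6%, while that sum itself varied 3.18-fold between libraries.

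The chains were set beside genes of the macrophage lineage. Adgre1, which encodes F4/80, had a TPM of 114, 45.8 and 25.4 in WT and of 91.1, 40.1 and 27.9 in C5aR-/- TAMs, and Csf1r, the receptor for colony-stimulating factor 1, had 239, 89.7 and 59.4 in WT and 301, 172 and 83.7 in C5aR-/- TAMs. C1qa over Csf1r lay between 3.62 and 5.72 in the 6 libraries, and C1qa over Mertk, a phagocytic receptor, between 30.2 and 45.2. These ratios varied 1.58-fold and 1.496-fold between libraries, against 3.42-fold for C1qa itself, whereas C1qa over Adgre1 varied 2.13-fold and over Lyz2, a lysozyme gene, 2.39-fold. C1qa over Cd68 did not overlap, at 3.58 to 4.62 in WT and 2.75 to 3.55 in C5aR-/- TAMs. The mean log2(TPM + 1) of 10 macrophage genes was 7.01, 5.90 and 5.35 in WT and 7.42, 6.57 and 5.66 in C5aR-/- TAMs. With this mean as a covariate in limma, the log2 differences of C1qa, C1qb and C1qc were 0.09, 0.13 and 0.09, with adjusted p-values of 0.763, 0.694 and 0.753. Of all genes tested, the 3 with the profile nearest to C1qa were C1qc, C1qb and Per1, with a mean absolute difference over the 6 libraries of 0.057, 0.078 and 0.083 on the centered log2 scale. The nearest to C1qb were C1qa (0.078), Fcer1g (0.079) and Grn (0.085), and to C1qc they were C1qa (0.057), Slc7a8 (0.085) and C1qb (0.089).

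**Figure D3:**
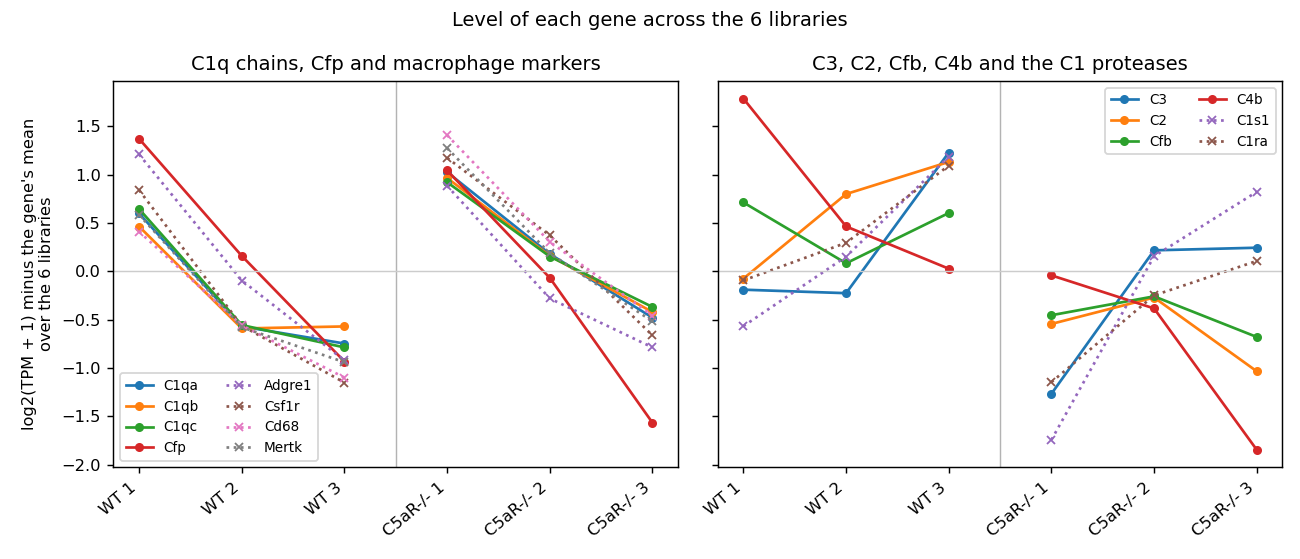
Log2(TPM + 1) of each gene minus its mean over the 6 libraries (vertical axis) in each library (horizontal axis). Lines join libraries of a group only to guide the eye. Left, the C1q chains run together with Csf1r, Cd68 and Mertk and are highest in C5aR-/- TAM 1, whereas Adgre1 and Cfp are highest in WT TAM 1. Right, C3, C1s1 and C1ra are lowest in that library, while C4b, Cfb and C2 have their 3 lowest libraries among C5aR-/- TAMs.

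C2 carries the protease of the classical C3 convertase. Its TPM was 27.0, 50.4 and 63.7 in WT and 19.3, 23.5 and 13.4 in C5aR-/- TAMs, a mean of 47.0 ± 18.6 (SD, n = 3) against 18.7 ± 5.05 (SD, n = 3). The groups did not overlap, and the gap between WT TAM 1 and C5aR-/- TAM 2 was small. The log2 difference was -1.23 (SE 0.35, 95% interval -2.07 to -0.40), with an adjusted p of 0.21 from limma. Without WT TAM 3 it was -0.98, which is under the 2-fold limit, and C2 was then no longer called at the unadjusted threshold. Unlike the C1q chains, C2 was lower in WT TAM 1 than in the other 2 WT libraries. The genes with the nearest profile were Fah (0.106), Zfp423 (0.112) and Akap5 (0.112).

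C4b encodes the mouse C4 protein, whose larger fragment binds covalently to targets and holds C2. C4b had a TPM of 373, 148 and 109 in WT and of 104, 82.0 and 29.1 in C5aR-/- TAMs, a mean of 210 ± 142 (SD, n = 3) against 71.8 ± 38.6 (SD, n = 3). The groups did not overlap, but WT TAM 3 and C5aR-/- TAM 1 were nearly equal. The log2 difference was -1.52 (SE 0.60, 95% interval -2.95 to -0.08), with an adjusted p of 0.326 from limma. The mean therefore differed 2.93-fold, and the interval nearly reaches 0. The unadjusted call was lost without WT TAM 1 (log2 difference -1.003), WT TAM 2 (-1.66), C5aR-/- TAM 2 (-1.70) or C5aR-/- TAM 3 (-0.97), and with median-of-ratios scaling or no filter. C4a, the sex-limited protein gene and close copy of C4b, shares 16.5% of its 100-base stretches with it and had a TPM of 10.9, 6.75 and 6.31 in WT and of 7.45, 3.29 and 1.54 in C5aR-/- TAMs. C4a made up at most 6.67% of the summed C4 TPM, and the sum of both genes was again called lower at the unadjusted threshold. The nearest profiles to C4b were those of Timd4 (0.182), F7 (0.185) and Mcemp1 (0.190). Timd4, a phosphatidylserine receptor of resident peritoneal macrophages, had a TPM of 28.4, 13.5 and 13.2 in WT and of 11.03, 7.18 and 1.77 in C5aR-/- TAMs, and C4b over Timd4 lay between 8.31 and 16.5 in the 6 libraries.

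Factor B supplies the protease of the alternative C3 convertase. Its gene Cfb had a TPM of 74.4, 47.8 and 68.9 in WT and of 32.6, 37.5 and 27.8 in C5aR-/- TAMs, a mean of 63.7 ± 14.1 (SD, n = 3) against 32.6 ± 4.85 (SD, n = 3). The groups did not overlap, and the SD of each was the smallest of the 8 tested members. The log2 difference of -0.93 (SE 0.21, 95% interval -1.43 to -0.43) had the smallest adjusted p of the members, 0.146 from limma, and stood below the 2-fold limit, which it passed without WT TAM 2 (-1.12) or C5aR-/- TAM 2 (-1.03). Its nearest profiles were those of Cebpd (0.106), Slc45a3 (0.116) and AC150898.1 (0.122). C2 and Cfb are adjacent genes that arose by duplication, and Cfb over C2 lay between 0.948 and 2.75. The readthrough gene Gm20547, which overlaps both and shares 81.0% of the 100-base stretches of Cfb and 53.2% of those of C2, did not exceed a TPM of 0.29, so reads that the counting could not place are an uncertainty of both values.

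C4b, Cfb and C2 lie within 170 kb. Of the 6 other tested genes in that interval, 0 lay apart between the groups, and their log2 differences ran from -0.96 for C4a to 0.14 for Stk19, with a median of -0.13. Nelfe, the gene directly next to Cfb, which encodes a subunit of the negative elongation factor, had a TPM of 40.6, 44.1 and 44.9 in WT and of 36.3, 42.6 and 45.3 in C5aR-/- TAMs. The interval was chosen with these values known and no test was run on it.

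C3, the protein on which all pathways converge, had a TPM of 397, 388 and 1064 in WT and of 188, 527 and 538 in C5aR-/- TAMs. The groups overlapped, WT TAM 3 was the highest library and C5aR-/- TAM 1 the lowest. The mean was 616 ± 388 (SD, n = 3) against 418 ± 199 (SD, n = 3), and the log2 difference was -0.54 (95% interval -1.84 to 0.76, adjusted p = 0.693 from limma). It was -0.04 without C5aR-/- TAM 1, -0.06 without WT TAM 3 and -0.17 with the macrophage covariate. C5aR-/- TAM 1, the lowest library for C3, was the highest for C1q, and C3 over C1qa varied 19.4-fold between libraries, from 0.162 in C5aR-/- TAM 1 to 3.13 in WT TAM 3. The nearest profiles were those of Dll1 (0.178), AC116849.2 (0.182) and Gbp2b (0.189), a looser match than for the C1q chains.

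Properdin is the stabilizer of the alternative convertase and is stored in neutrophils and made by monocytes. Its gene Cfp had a TPM of 232, 99.5 and 46.2 in WT and of 185, 84.9 and 29.4 in C5aR-/- TAMs. The spread within each group was wider than the difference between them, and the log2 difference was -0.40 (SE 0.79, 95% interval -2.27 to 1.48, adjusted p = 0.854 from limma). Its sign turned when WT TAM 1 or C5aR-/- TAM 3 was left out, to 0.19 and 0.29, and with the macrophage covariate it was -1.05 (adjusted p = 0.0673 from limma), past the unadjusted threshold. Cfp over Adgre1 lay between 1.82 and 2.18 in 5 libraries and was 1.05 in C5aR-/- TAM 3. The nearest profiles were those of Lyz1 (0.113), a lysozyme gene, Wfdc17 (0.156) and Ifi207 (0.157).

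C6, the first of the terminal components to join C5b, had a TPM of 0.46, 0.23 and 0.20 in WT and of 1.57, 0.90 and 1.02 in C5aR-/- TAMs. Every C5aR-/- library was above every WT library (exact permutation test, two-sided, p = 0.1, which is the smallest p of 3 against 3). The mean was 0.297 ± 0.142 (SD, n = 3) against 1.16 ± 0.358 (SD, n = 3), so the difference rests on values near 1 TPM whose counting error is unknown. Fitted without the filter, C6 had a log2 difference of 0.73 (SE 0.18) and an adjusted p of 0.31 from limma.

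Relative to C1qa of the same library, C4b and Cfb, whose groups did not overlap above, stayed without overlap. The ratios reuse those values and are not a second observation. Mean C1qa was higher in C5aR-/- than in WT TAMs (740 against 529 TPM), which lowers such ratios in C5aR-/- TAMs. C4b over C1qa was 0.431, 0.387 and 0.322 in WT and 0.0896, 0.127 and 0.0712 in C5aR-/- TAMs, a 3.96-fold ratio of the means (two-sided exact permutation test, p = 0.1). Cfb over C1qa was 0.0861, 0.124 and 0.203 in WT and 0.0280, 0.0580 and 0.0679 in C5aR-/- TAMs (two-sided exact permutation test, p = 0.1). C2 over C1qa overlapped, since WT TAM 1 at 0.0313 lay below C5aR-/- TAM 2 at 0.0363. The WT libraries were closer together in C4b over C1qa than in C4b itself. With the same covariate, C4b was called lower at the adjusted threshold (log2 difference -2.01, adjusted p = 0.0449 from limma), with 0.176% of all genes called in either direction, and the adjusted p of C4b over all settings tried ran from 0.0449 to 0.678.

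**Figure D4:**
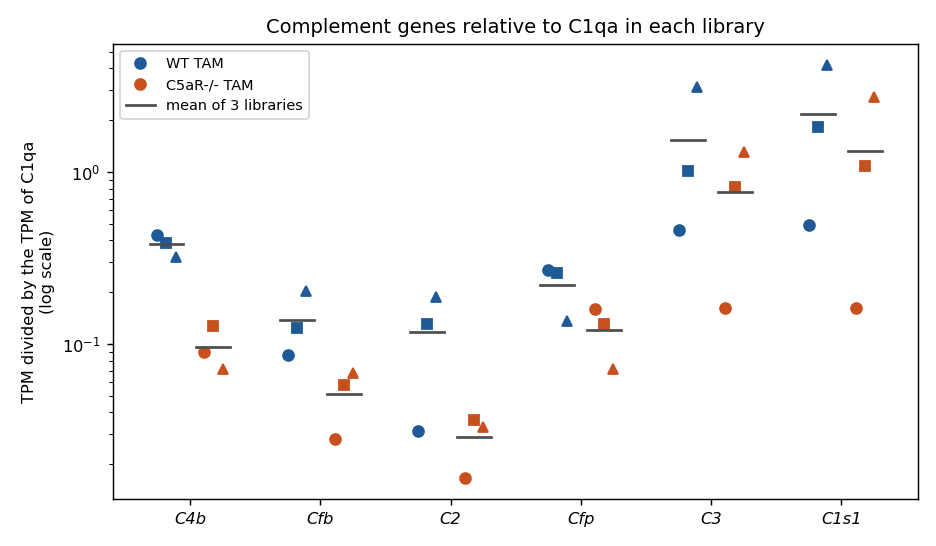
TPM of 6 complement genes divided by the TPM of C1qa in the same library (vertical axis, log scale), with a point per library, point shapes for replicates 1, 2 and 3 as circle, square and triangle, and the mean of 3 libraries as a bar. The ratio of C4b is between 0.322 and 0.431 in WT and between 0.0712 and 0.127 in C5aR-/- TAMs, and Cfb also lies apart, while C2, Cfp, C3 and C1s1 overlap.

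The rest of the pathway was read from 44 further complement genes, of which 38 were above 0 in at least 1 library and 23 were tested. Of the 23, C5aR-/- TAMs had 5 higher and 18 lower, while 55.5% of all genes tested were lower. Their median log2 difference was -0.52 against -0.05 over all genes, and 0 passed the adjusted threshold, as did 0% of all genes. At an unadjusted p under 0.05 limma gave 3 lower and 0 higher, beside 1237 lower and 896 higher of the 14776 genes tested. At the unadjusted threshold there were 2 lower, C5ar1 and Serping1, against 2.84% of all genes in that direction. C5ar1 is the targeted gene, so its call follows from the knockout, and Serping1 was the only other gene called. The count was 3 to 5 when any 1 library was left out, C5ar1 included. Groups did not overlap for 4 of the 23, all lower: Serping1, Clu, Cd55 and the targeted C5ar1. Over all genes 12.5% lay wholly lower and 8.84% wholly higher.

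Among the initiators that act with C1q, C1s1, which encodes C1s, was the most abundant, at 423, 698 and 1428 in WT and 187, 700 and 1111 in C5aR-/- TAMs. C1ra, which encodes C1r, had a TPM of 79.8, 105 and 183 in WT and of 38.0, 71.6 and 91.9 in C5aR-/- TAMs (log2 difference -0.86, adjusted p = 0.396 from limma). Like C3, both proteases were highest in WT TAM 3 and lowest in C5aR-/- TAM 1, and C1s1 over C1qa ran from 0.161 in C5aR-/- TAM 1 to 4.21 in WT TAM 3. C1ra shares 34.5% of its 100-base stretches with its copy C1rb, which lay between 0.62 and 4.57. The mannose-binding lectin genes Mbl1 and Mbl2 were listed at 0 in all libraries, while Fcna, a macrophage ficolin of the lectin pathway, ran from 26.0 to 565.

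For the alternative and terminal steps most partners were near 0. Cfd, the protease that cleaves factor B, did not exceed 0.31. Among the partners of C6, C7 and C8b were listed at 0 in all libraries, C8a did not exceed 0.11 and C9 did not exceed 0.34, and C8g lay between 1.10 and 2.70.

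Of the regulators, 5 of 9 soluble and 4 of 7 membrane genes stayed below a TPM of 1 in every library, and the values of 5 others follow. Serping1, the C1 inhibitor, had a TPM of 71.6, 151 and 182 in WT and of 32.1, 51.2 and 41.6 in C5aR-/- TAMs, a mean of 135 ± 56.9 (SD, n = 3) against 41.6 ± 9.54 (SD, n = 3). Its log2 difference was -1.59 (SE 0.36, adjusted p = 0.149 from limma), and the groups did not overlap. Cd55, decay-accelerating factor, had 167, 130 and 168 in WT and 93.8, 111 and 54.5 in C5aR-/- TAMs, without overlap (log2 difference -0.89, adjusted p = 0.234 from limma). Clu, clusterin, had the highest mean TPM of the complement genes in both groups, between 1706 and 2119 in WT and between 1035 and 1556 in C5aR-/- TAMs. Cr1l, the mouse regulator Crry, lay between 68.9 and 76.8 in WT and between 46.1 and 70.6 in C5aR-/- TAMs, and Cd59a, an inhibitor of the membrane attack complex, between 11.8 and 17.6 and between 2.96 and 15.7, so both overlapped.

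Among receptors for complement fragments, C3ar1, the C3a receptor, had a TPM of 19.5, 11.3 and 7.63 in WT and of 19.8, 15.1 and 8.03 in C5aR-/- TAMs, a log2 difference of 0.16 within the spread. Vsig4, a macrophage receptor for C3b, had 45.1, 9.91 and 9.07 in WT and 48.4, 26.4 and 15.0 in C5aR-/- TAMs, and its libraries had the same order as those of C1qa. Itgam and Itgb2, which together form complement receptor 3, had log2 differences of -0.64 and -0.52, and neither gene's groups lay apart. Itgax, the alpha chain of complement receptor 4, had 4.26, 5.92 and 13.8 in WT and 10.1, 17.4 and 20.9 in C5aR-/- TAMs, which overlapped (log2 difference 1.02).

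**Figure D5:**
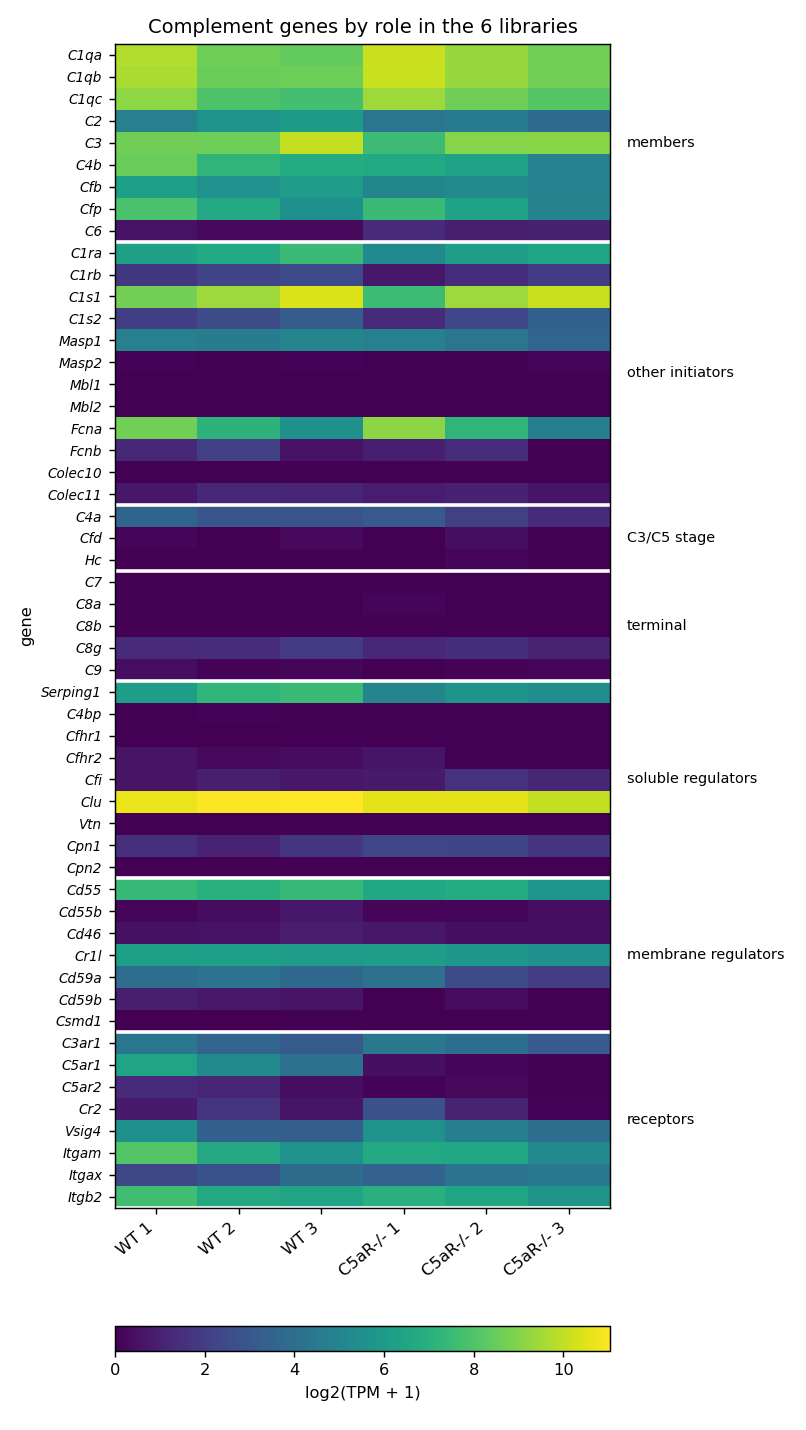
Log2(TPM + 1) (color) of the 9 members and 44 other complement genes (rows, grouped by role) in the 6 libraries (columns). Early components, soluble and membrane regulators and receptors are expressed, Clu is the brightest row, and C5 (Hc), Cfd and most terminal components are near 0 in every library.

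Genes of some other cell types differed between the same groups. Over all genes 12.5% lay wholly lower in C5aR-/- TAMs and 8.84% wholly higher. Of 8 mesothelial genes 7 were lower in C5aR-/- TAMs, 5 of them without overlap, and Msln, which encodes mesothelin, was higher without overlap (135 to 180 in WT and 268 to 288 in C5aR-/- TAMs). Their summed TPM lay between 2102 and 2698 in WT and between 1209 and 2078 in C5aR-/- TAMs. All 7 genes of large peritoneal macrophages were lower, 3 without overlap, with sums of 252 to 1190 and of 107 to 208. The 5 tested neutrophil genes were lower, 4 without overlap, with sums of 608 to 2280 and of 26.7 to 376, although the sort gated out Ly6G+ cells. Of 6 mast cell genes 4 were lower without overlap, among them the proteases Mcpt4 (mean TPM 15.6 against 0.0833) and Cpa3 (19.2 against 0.72), whereas Kit was higher without overlap and Gata2 higher with overlap. The part of these cell types in the values of C2, C4b, Cfb, Serping1 and Cd55 was not tested. In other lists, 5 of 6 tested monocyte, 4 of 5 B cell, 2 of 5 dendritic and 1 of 3 endothelial genes were lower, 0 of them without overlap. All 5 tested T cell genes and 4 of 5 fibroblast genes were lower, 1 in each list without overlap. Summed macrophage genes overlapped, at 1764 to 7172 in WT and 1577 to 6458 in C5aR-/- TAMs, a sum that Lyz2 dominates, and 7 of the 10 genes were higher, Fcgr1 and Aif1 without overlap, and 3 lower. Of the defining hepatocyte genes, Serpina1a and Fgb were listed at 0 in all libraries and Alb did not exceed 0.11, Ttr 0.07 or Apoa1 1.44, while Ahsg lay between 19.5 and 53.0. Krt8, a keratin of epithelial and mesothelial cells, lay between 455 and 465 in WT and between 624 and 758 in C5aR-/- TAMs. These levels were found although the sort selected CD45+ cells. Of the 5 tested epithelial genes, only Krt8 lay apart between the groups. Krt18 was higher with overlap (log2 difference 0.13), whereas Krt7 (-0.69), Epcam (-0.32) and Cdh1 (-0.09) were lower with overlap. The summed epithelial genes, dominated by Krt8 and Krt18, ran from 937 to 1016 in WT and from 1161 to 1465 in C5aR-/- TAMs.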

How the data were processed

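Poly(A) RNA of sorted TAMs was measured in 6 libraries, which the sample titles put in 2 groups of 3. Per the submitters' processing notes, the authors used fastp, HISAT2, StringTie, RSEM and DESeq2 with mm10 (GRCm38), and versions are not given in the sources used here. The study's methods name FPKM, but the deposited values are TPM, computed by the authors and summing to 1000000 per library. TPM keeps no depth, so count tests were not run. The authors' 2 columns of group means were not used. Symbols and positions came from GENCODE M21 for 52073 gene IDs.

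Groups were compared with limma 3.58.1 in R 4.3.3 (lmFit, eBayes with trend) on log2(TPM + 1), with Benjamini-Hochberg adjustment over the 14776 genes kept and the thresholds stated in the study's methods. Differences on this scale understate the change of low genes. The fit was tested on simulated data. Tables used Python 3.11.15, pandas 2.3.3, numpy 2.4.6 and scipy 1.17.1. Likeness was the mean absolute difference of centered log2(TPM + 1), and the 3 nearest genes of other symbols were named per tested member. The 100-base stretches were compared between the transcripts of GENCODE M21. All members are named, with a fixed set of other complement genes and any other past the unadjusted threshold. Fcna, Mbl1, Mbl2, C1rb, Itgax, the terminal genes and the genes near C4b and C2 were named after their values were seen. A gene of the list is not reported here. Members, lists and tests were chosen with earlier results of these data known. The fits were repeated with quantile normalization, with median-of-ratios scaling, with a pseudocount of 0.1, unfiltered, filtered at a TPM of 5, with eBayes without trend, with the replicate number as a block, with the macrophage covariate, with C4b summed with C4a, and without each library in turn.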

Additional observations from a re-analysis of the deposited data

How the results depend on the processing

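The members called at the adjusted threshold numbered 0 in the reported fit and in each fit without a library (0 to 0), and 1, C4b, with the macrophage covariate. At the unadjusted threshold C2 and C4b made 2. There was 1, C2, without the filter and with median-of-ratios scaling, there were 3, C2, C4b and Cfp, with the macrophage covariate, and without 1 library there were 1 to 2: C2 alone without WT TAM 1 or C5aR-/- TAM 3, C4b alone without WT TAM 3, C2 and Cfb without WT TAM 2 or C5aR-/- TAM 2, and C2 and C4b without C5aR-/- TAM 1. Of the other complement genes 2 were called, and 3 (with Itgax) with quantile normalization, median-of-ratios scaling or the replicate block. There were 8 with the macrophage covariate and 3 to 5 without a library. Each count includes C5ar1, the targeted gene. Itgam, 1 of the 8, is also among the 10 genes averaged into the covariate. Over all genes, limma with the covariate called 572 lower and 447 higher at the unadjusted threshold, against 419 and 314 in the reported fit. The log2 difference of Cfp turned positive without WT TAM 1 (0.19) or C5aR-/- TAM 3 (0.29), and ran from -1.01 to 0.29 without a library. The TPM difference of C6 ran from 0.663 to 0.998. The cause of these shifts was not tested. C1qa, C1qb, C1qc, C2, C3, C4b and Cfb kept the sign of their difference in all 15 alternatives, with C1qa from 0.09 to 0.90, C3 from -0.80 to -0.04 and C4b from -1.88 to -0.97 without a library. Over all genes 0 passed the adjusted threshold in the reported fit. It was passed by 356 without C5aR-/- TAM 1, 3 without C5aR-/- TAM 3 and 1 without C5aR-/- TAM 2. With the macrophage covariate 26 passed, and with eBayes without trend 2.

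Same-numbered libraries correlated at 0.186, -0.011 and 0.272 in their deviations from the group means. The values for numbers 1 and 3 were the highest of all between WT and C5aR-/- libraries. C5aR-/- TAM 2 lay near 0 with every WT library, from -0.011 to 0.016. These correlations cannot decide whether the numbers are pairs. The labels do not call them pairs, so the reported fit did not use them. With the replicate block 2 members passed the unadjusted threshold, and 0 the adjusted one. The block lowered the unadjusted limma p of C1qa from 0.353 to 0.0328, of C1qb from 0.312 to 0.0465 and of C1qc from 0.346 to 0.0283. It lowered that of Cfp from 0.631 to 0.0425, of C4b from 0.0409 to 0.00187 and of C3 from 0.358 to 0.178. For C2 it rose from 0.0101 to 0.0173 and for Cfb from 0.00326 to 0.0105. Library depth is unknown, so no counting error stands behind any value.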
